A study of Homo sapiens with 6 samples.

Results

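Messenger RNA of 10 genes of the epithelial-mesenchymal transition (EMT) was followed in A375, a long-established line of human melanoma cells: the transcription factors SNAI1, SNAI2, TWIST1, ZEB1 and ZEB2, the cadherins CDH1 and CDH2, and the junction proteins TJP1, OCLN and JUP. The genes were chosen by name, with earlier results of these data known. All 10 were measured, by 21 probe sets whose annotation names 1 of them and no other gene, out of 18132 genes and 44988 such probe sets on the array. A probe set is a group of short probes that reads 1 stretch of a transcript. The study compared A375 cells that carried a lentiviral short hairpin RNA against UBE2S with control A375 cells, with 3 biological replicates and 3 arrays in each group. What the control cells received, how many hairpins were used and the time after infection are not given in the sources used here. Nothing in the labels says whether the replicates came from separate infections, so p-values measure the spread between these arrays. Values are log2 expression, and each probe set had been centred by the authors so that its median over the 6 arrays is 0. They give differences between arrays, not levels, and every change below is knockdown minus control.

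In epithelia, SNAI1 and SNAI2 (zinc finger proteins), ZEB1 and ZEB2 (zinc finger homeodomain proteins) and TWIST1 (a basic helix-loop-helix protein) repress adhesion genes, above all CDH1, by binding short DNA motifs called E-boxes and recruiting corepressor complexes. Cells in which they are active tend to lose E-cadherin (CDH1) and gain N-cadherin (CDH2). Melanocytes come from the neural crest and express some of these factors as part of their normal lineage. SNAI2 and ZEB2 are tied to the melanocyte state, and ZEB1 and TWIST1 to less differentiated, invasive melanoma. Epidermal melanocytes are held to keratinocytes by E-cadherin, which melanomas often lose. TJP1 (ZO-1) is a scaffold under tight and adherens junctions, OCLN (occludin) a membrane protein of tight junctions, and JUP (plakoglobin) an armadillo protein of desmosomes and adherens junctions.

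The E-box letters bound by SNAI and ZEB proteins, CAGGTG and its reverse complement CACCTG, were searched in the 250 bases before annotated transcript starts, since SNAI1 was one of the members that changed. Windows came from RefSeq, build GRCh38.p14, and 6 of the 10 members had at least 1 that was searched. CDH1, SNAI1, SNAI2 and TWIST1 are the members without one, so nothing is given on E-boxes before CDH1. Of all 35116 windows in that table, 17.5% held either hexamer. The window before the outermost start is shown for TJP1, the junction gene called through 1 of its 2 probe sets, and for OCLN and CDH2, which did not pass the test. Sequences run 5′ to 3′ on the strand of the gene, with each match in capitals.

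TJP1, chr15:29969050-29969299, strand -: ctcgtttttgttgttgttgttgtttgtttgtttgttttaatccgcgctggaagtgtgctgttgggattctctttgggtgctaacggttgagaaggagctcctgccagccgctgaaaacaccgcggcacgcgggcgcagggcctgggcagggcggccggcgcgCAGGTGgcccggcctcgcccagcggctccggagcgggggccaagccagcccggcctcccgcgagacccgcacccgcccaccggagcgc
OCLN, chr5:69492297-69492546, strand +: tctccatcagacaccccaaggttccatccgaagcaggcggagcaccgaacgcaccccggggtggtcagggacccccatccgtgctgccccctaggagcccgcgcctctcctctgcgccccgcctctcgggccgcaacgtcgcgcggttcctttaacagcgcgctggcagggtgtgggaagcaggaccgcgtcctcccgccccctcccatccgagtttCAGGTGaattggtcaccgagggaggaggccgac
CDH2, chr18:28177131-28177380, strand -: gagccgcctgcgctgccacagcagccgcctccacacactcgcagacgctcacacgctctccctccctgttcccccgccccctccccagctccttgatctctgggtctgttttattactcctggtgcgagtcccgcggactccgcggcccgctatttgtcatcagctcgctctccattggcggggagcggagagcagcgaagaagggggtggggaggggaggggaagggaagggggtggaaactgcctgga

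TJP1 held 1 match, 88 bases before its outermost start, and none before its other 3 annotated starts. OCLN held 1 match in each of its 2 windows, at 33 and 133 bases before the start. CDH2 held none in 2 windows and ZEB2 none in 1, while JUP held 2 in 1 of its 2 windows and ZEB1 held 3 in 2 of its 7. These are matches of letters, and whether any protein bound there was not measured.

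UBE2S, the ubiquitin-conjugating enzyme targeted by the hairpin, stood at -1.13, -1.05 and -1.01 in the knockdown arrays and at 1.06, 1.01 and 1.01 in the control arrays. Its change of -2.09 (SE 0.04, adjusted p = 9.23e-08 in limma, an adjusted p over all 18132 genes) left 23.5% of the control signal. Widespread change is the background of every count below: 40.1% of all genes passed an adjusted p of 0.05, 3888 upward and 3378 downward. That split depended on the scaling, with 1764 upward and 9196 downward when the arrays were centred on 18 hybridization spike-in probe sets, which were 0.17 higher in knockdown arrays, and 2486 and 6297 with 24 poly-A spike-in probe sets, which were 0.098 higher. Hybridization spike-in centring moved the median change of all genes from -0.0038 to -0.17, so changes are stated relative to the array-wide level of the deposited values. The 3′ minus 5′ difference of the ACTB control probe sets, a sign of RNA quality, exceeded the control arrays' by 0.19 under knockdown, without overlap, and that of GAPDH was 0.023 higher with overlap. Their part in the results below was not tested. Melanocyte and melanoma markers were measured for 8 of 9 genes, of which S100B and TYRP1 rose (1.09 and 0.22), MITF fell (-0.72) and 5 did not pass. Among 22 measurements of keratinocyte, fibroblast, blood cell and endothelial markers, 4 rose (KRT10, LUM, HBB and VWF) and 2 fell (KRT14 and DCN). With hybridization spike-in centring TYRP1 (0.056), KRT10 (0.053) and VWF (-0.0056) no longer passed, and 7 further markers passed as lower (MLANA, SFN, COL1A2, COL3A1, THY1, PECAM1 and CDH5, from -0.27 to -0.18). The mean of the fibroblast markers ran from 0.023 to 0.064 in knockdown and from -0.076 to -0.047 in control arrays, and that of the keratinocyte markers from -0.021 to 0.015 and from 0.040 to 0.070. That of the blood cell markers ran from 0.055 to 0.061 and from -0.089 to -0.024, that of the melanocyte and melanoma markers from 0.027 to 0.071 and from -0.086 to -0.012, and that of the endothelial markers overlapped between groups. The largest changes in the separated lists were those of LUM (0.93), KRT14 (-0.46), HBB (0.41) and S100B (1.09). In the fibroblast list 5 of 7 markers did not pass, in the keratinocyte list 3 of 5 and in the blood cell list 4 of 5. Such means can follow 1 gene and do not show that a list moved as a whole. The part of the markers in the results was not tested either. Centred values do not give the level of any of these markers. In bulk RNA, fewer cells of a type and less RNA per cell cannot be told apart.

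Of the 10 genes, SNAI1 fell, TJP1 rose and the other 8 did not pass the test, so 2 of 10 were called where 40.1% of all genes were (21.4% upward and 18.6% downward). The median change of the 10 was 0.027, against -0.0038 for all genes. The groups did not overlap for 5 of the 10 (SNAI1, TWIST1, ZEB1, CDH2 and TJP1), against 50.0% of all genes. Neither E-cadherin nor N-cadherin passed the test with the deposited scaling.

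**Figure D1:**
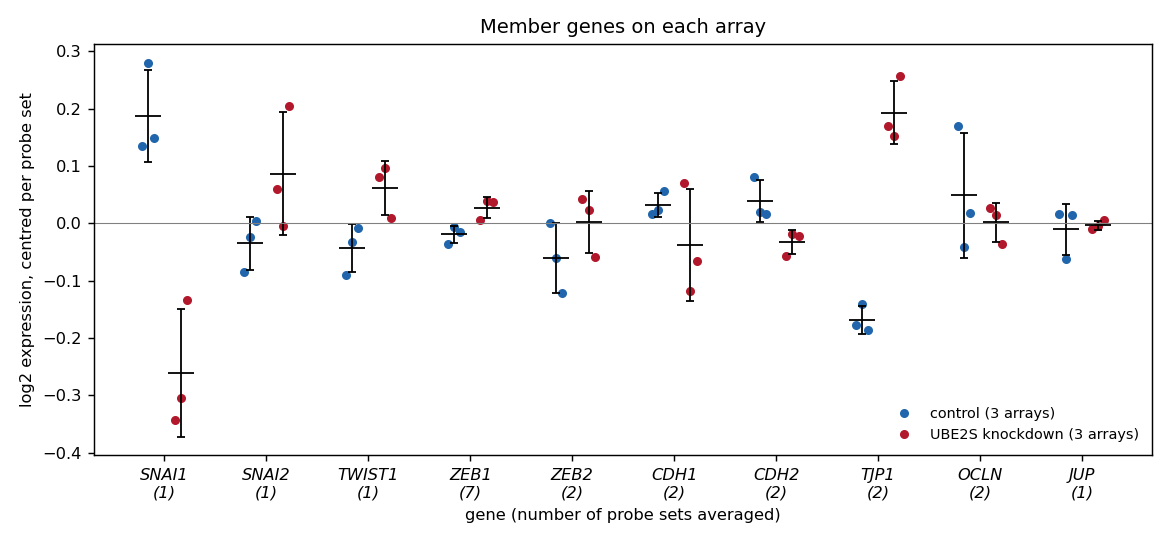
Centred log2 expression of the 10 genes on each array, with the mean of the probe sets of each gene (their number in brackets below the symbol), control arrays as blue points and knockdown arrays as red points, and horizontal marks and bars for the group mean and SD of 3 arrays. SNAI1 lies between -0.34 and -0.13 in knockdown and between 0.13 and 0.28 in control arrays, TJP1 is ordered the other way, and the remaining genes stay within about 0.21 of 0.

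SNAI1, a zinc finger repressor that acts early in many forms of EMT, was lower in every knockdown array. Its 1 probe set read -0.34, -0.30 and -0.13 in knockdown arrays and 0.13, 0.28 and 0.15 in control arrays. Knockdown replicate 3 lay closest to the controls, and the groups did not overlap. The change was -0.45 (SE 0.07, 95% interval -0.60 to -0.30, adjusted p = 8.02e-04 in limma), which left 73.3% of the control signal. It was larger in size than that of 91.0% of all genes. The call held without each array in turn (-0.51 to -0.40) and under both spike-in centrings (-0.62 and -0.55). A single probe set gives no second reading of this gene.

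SNAI2, the close relative of SNAI1 that serves in neural crest and melanocyte development, did not follow it. Its probe set read 0.059, -0.0045 and 0.21 in knockdown arrays and -0.086, -0.025 and 0.0045 in control arrays, so knockdown replicate 3 was high and the groups overlapped. The change was 0.12 (SE 0.06, 95% interval -0.012 to 0.26) and did not pass the test (adjusted p = 0.14 in limma), with a value of -0.046 after hybridization spike-in centring. That interval does not reach the value of SNAI1. The difference between the 2 genes was not tested.

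TWIST1 encodes a helix-loop-helix factor of mesoderm and neural crest. It read 0.080, 0.097 and 0.0086 in knockdown arrays and -0.090, -0.033 and -0.0086 in control arrays. The knockdown arrays lay above the controls with a narrow gap. The change of 0.11 (SE 0.04, 95% interval 0.0098 to 0.20) did not pass the test (adjusted p = 0.079 in limma). It passed with array weights (0.13, adjusted p = 0.027) and without knockdown replicate 3 (0.13, adjusted p = 0.048), and stood at -0.062 after hybridization spike-in centring.

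ZEB1, the factor of invasive melanoma states, had 7 probe sets, more than any other member, and 6 of them did not pass the test, with changes from -0.021 to 0.061. Averaged over the 7, knockdown arrays read 0.0060, 0.039 and 0.037 and control arrays -0.036, -0.0063 and -0.016. All 6 arrays were thus within 0.04 of 0, although the groups did not overlap. The gene's change of 0.047 (SE 0.03, 95% interval -0.032 to 0.12, adjusted p = 0.33 in limma) turned to -0.051 and -0.12 with poly-A and hybridization spike-in centring, the latter with an adjusted p of 0.047.

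The exception among the ZEB1 probe sets was 11758473_s_at, designed on an expressed sequence tag. It read 0.064, 0.056 and 0.22 in knockdown arrays and -0.056, -0.079 and -0.13 in control arrays. Knockdown replicate 3 was the highest and the groups did not overlap. Its change was 0.20 (SE 0.06, adjusted p = 0.027 in limma over all probe sets). Set against the mean of the other 6 ZEB1 probe sets it differed by 0.18 (SE 0.07), which did not pass the test (adjusted p = 0.11), and its own call was lost under both spike-in centrings (0.10 and 0.034), with the replicate block (adjusted p = 0.058) and without 4 of the 6 arrays in turn.

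ZEB2, the paralogue of ZEB1 that belongs to the melanocyte program, had 2 probe sets that moved in opposite directions. Probe set 11747942_a_at read 0.098, 0.23 and 0.21 in knockdown arrays and -0.098, -0.39 and -0.26 in control arrays, all knockdown arrays being higher. It rose by 0.43 (SE 0.08, adjusted p = 0.0032 in limma). Probe set 11756954_s_at read -0.013, -0.19 and -0.33 in knockdown arrays and 0.099, 0.26 and 0.013 in control arrays, all knockdown arrays being lower.

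This second ZEB2 probe set fell by 0.30 (SE 0.09, adjusted p = 0.036), a call that was lost without 4 of the 6 arrays in turn (adjusted p up to 0.11). The difference between the 2 probe sets, 0.73 (SE 0.15, 95% interval 0.39 to 1.07), passed the test over all such comparisons (adjusted p = 0.014). Their mean, which stands for the gene, was 0.0022 ± 0.05 (SD, n = 3) in knockdown and -0.061 ± 0.06 (SD, n = 3) in control arrays. The gene's change of 0.063 (SE 0.05, adjusted p = 0.34 in limma) is therefore a mean of 2 unlike readings, and it turned to -0.035 and -0.10 under the spike-in centrings.

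CDH1, or E-cadherin, the adhesion receptor of epithelia and the main target of the factors above, read 0.071, -0.12 and -0.066 in knockdown arrays and 0.016, 0.023 and 0.056 in control arrays. The highest and the lowest array were both knockdown arrays. The change of -0.070 (SE 0.05, 95% interval -0.19 to 0.051) did not pass the test (adjusted p = 0.35 in limma). Its 2 probe sets gave -0.062 and -0.078. Both belonged to the lowest of 3 signal classes, read from the rounding of the stored values, which places a probe set between 2 and 4, 4 and 8, or 8 and 16 on the log2 scale before centring. Of all probe sets 18.9% were in that lowest class, and of 23 background control probe sets 13 were, so CDH1 was read near the level where many background controls lie.

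CDH2, or N-cadherin, the adhesion receptor of neural and mesenchymal cells, read -0.057, -0.019 and -0.023 in knockdown arrays and 0.081, 0.019 and 0.016 in control arrays. The knockdown arrays were all lower, by a small margin. The change of -0.072 (SE 0.04, 95% interval -0.16 to 0.013) did not pass the test (adjusted p = 0.17 in limma). Both of its probe sets were in the highest signal class.

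The probe sets of CDH2 did not read alike. Probe set 11726614_at, designed on the RefSeq messenger RNA, fell by 0.14 (SE 0.05, adjusted p = 0.043 in limma), from 0.12, 0.034 and 0.081 in control arrays to -0.069, -0.034 and -0.086 in knockdown arrays. The call was lost with the replicate block (adjusted p = 0.098) and without 5 of the 6 arrays in turn (adjusted p up to 0.14). Probe set 11726615_a_at stood at -0.00098 (SE 0.05), and the difference of 0.14 between them did not pass the test (adjusted p = 0.13). CDH1 and CDH2 passed the test as lower under both spike-in centrings, at -0.17 for each with poly-A and at -0.24 for each with hybridization spike-ins, and 34.7% and 50.7% of all genes passed as lower with these 2 scalings.

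The difference CDH2 minus CDH1 on the same array, which cancels the scaling of the arrays, was -0.13, 0.099 and 0.043 in knockdown arrays and 0.065, -0.0041 and -0.040 in control arrays. Its mean was 0.0051 ± 0.12 (SD, n = 3) in knockdown and 0.0071 ± 0.05 (SD, n = 3) in control arrays. The groups differed by -0.0020, less than the spread within either. That difference ran from -0.049 (without knockdown replicate 2) to 0.064 (without knockdown replicate 1) when 1 array was left out, and was -0.081 with the probe sets of largest variance. Since both CDH1 probe sets were in the lowest signal class, a reading of CDH1 above background is not shown, and the difference says little on the balance of the cadherins.

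**Figure D2:**
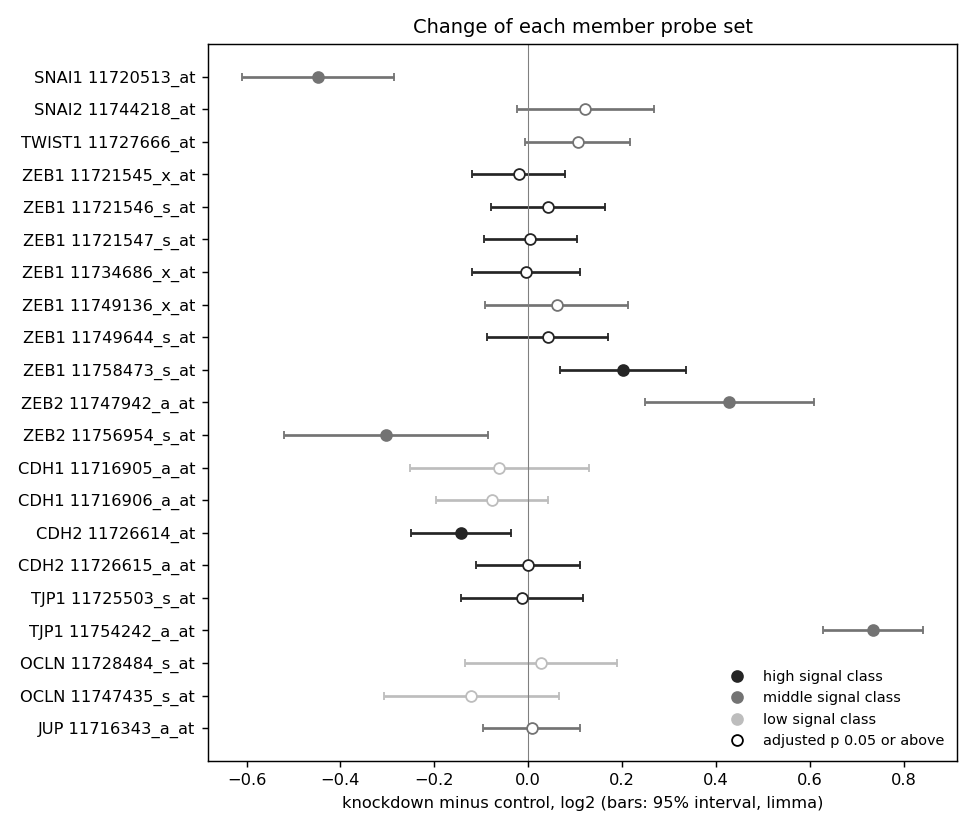
Change of each of the 21 probe sets (knockdown minus control, log2) with its 95% interval from limma, shaded by signal class, filled where the adjusted p over all probe sets was under 0.05 and open otherwise. Of the 21, 3 rose and 3 fell, and the largest change is the 0.74 of 1 of the 2 TJP1 probe sets.

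TJP1, the scaffold that ties tight junction proteins to actin, rose as a gene. The mean of its 2 probe sets was 0.17, 0.15 and 0.26 in knockdown arrays and -0.18, -0.14 and -0.19 in control arrays, with no overlap. The change was 0.36 (SE 0.04, 95% interval 0.27 to 0.46, adjusted p = 2.07e-04 in limma), a 1.28-fold rise that held under both spike-in centrings (0.26 and 0.19) and without each array in turn (0.33 to 0.38). It was larger in size than that of 86.6% of all genes.

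All of this rise came from 1 probe set. Probe set 11754242_a_at, designed on an expressed sequence tag, read 0.37, 0.33 and 0.41 in knockdown arrays and -0.33, -0.36 and -0.40 in control arrays. The 2 sets of arrays were tight and far apart. Its change was 0.74 (SE 0.05, adjusted p = 1.55e-05 in limma), larger in size than that of 96.3% of all probe sets. Probe set 11725503_s_at, designed on the RefSeq messenger RNA and in a higher signal class, read -0.036, -0.025 and 0.10 in knockdown arrays and -0.025, 0.080 and 0.025 in control arrays.

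The groups overlapped there, and the change of -0.013 (SE 0.06, 95% interval -0.14 to 0.12) did not pass the test (adjusted p = 0.89). The difference between the 2 TJP1 probe sets was 0.75 (SE 0.06, adjusted p = 3.83e-04 in limma), larger in size than that of 98.8% of all probe sets set against the others of their gene. Without 11754242_a_at the gene stood at -0.013. The annotation does not say which TJP1 transcripts either probe set reads.

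**Figure D3:**
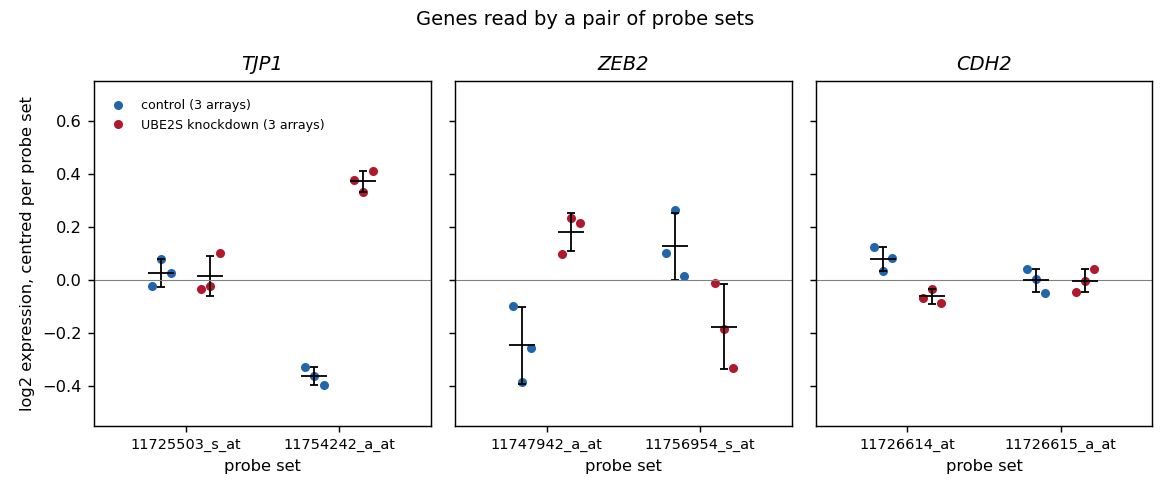
Centred log2 expression on each array for both probe sets of TJP1, ZEB2 and CDH2, with control arrays in blue, knockdown arrays in red, and marks and bars for the mean and SD of 3 arrays. In TJP1 only 11754242_a_at separates the groups, in ZEB2 the 2 probe sets separate them in opposite order, and in CDH2 the shift of 11726614_at is 0.14.

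OCLN, the tight junction protein occludin, read 0.026, 0.015 and -0.037 in knockdown arrays and 0.17, -0.042 and 0.017 in control arrays. Control replicate 1 was the high array and the groups overlapped. The change of -0.047 (SE 0.06, 95% interval -0.18 to 0.085) did not pass the test (adjusted p = 0.57 in limma), but with hybridization spike-in centring it was -0.21 and passed as lower (adjusted p = 0.032). Both probe sets (0.027 and -0.12) were in the lowest signal class. A further probe set that reads OCLN together with the pseudogene OCLNP1 was in the highest class and fell by 0.30 (SE 0.09, adjusted p = 0.029), and it was not counted because its annotation names 2 genes.

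JUP, the desmosomal and adherens junction protein plakoglobin, was the flattest of the 10. Its 1 probe set read -0.010, -0.0052 and 0.0052 in knockdown arrays and 0.015, -0.062 and 0.015 in control arrays. The change was 0.0072 (SE 0.04, 95% interval -0.079 to 0.094, adjusted p = 0.91 in limma), smaller in size than that of about 95.7% of all genes. With hybridization spike-in centring it became -0.16 and passed the test as lower (adjusted p = 0.031).

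By probe set, 6 of the 21 were called, where 36.9% of all probe sets were: those of SNAI1, ZEB1 (1 of 7), ZEB2 (both), CDH2 (1 of 2) and TJP1 (1 of 2). Of these, 3 rose and 3 fell, against 19.5% and 17.4% of all probe sets. The groups did not overlap for 7 of the 21, against 48.2%. Between 3 and 5 stayed called when 1 array was left out. In 6 members with at least 2 probe sets, 17 probe sets could be set against the others of their gene, and 4 differed, the mirrored pairs of TJP1 and ZEB2, where 16.6% of all such probe sets did (8.47% upward and 8.11% downward). By signal class, 9 of the 21 probe sets were in the highest, 8 in the middle and 4 in the lowest class, the 4 being those of CDH1 and OCLN. The SNAI1 probe set was in the middle class. Of the 23 background control probe sets 6 were in the middle and 4 in the highest class, so these classes alone do not show a reading above background.

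**Figure D4:**
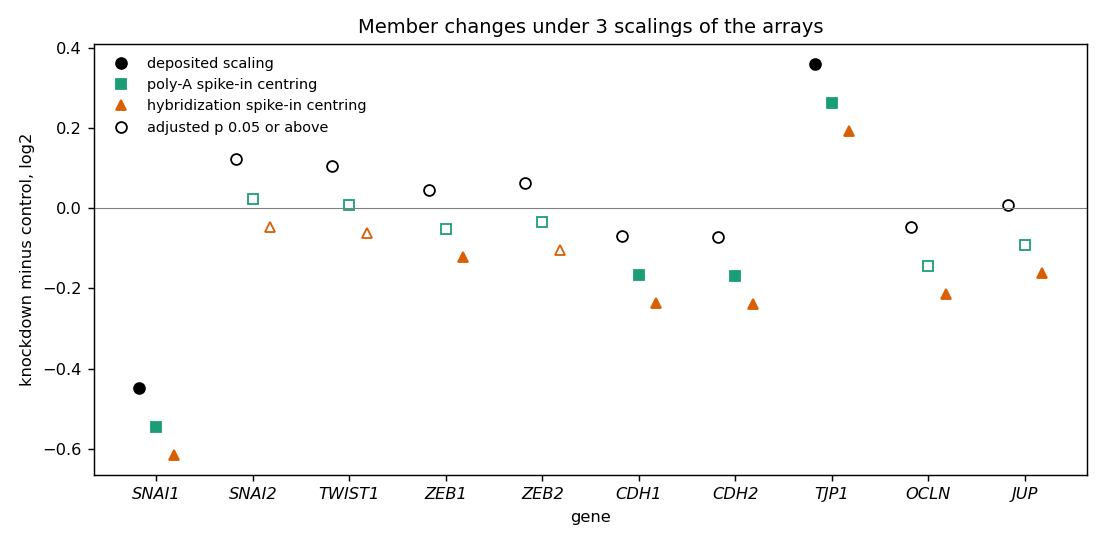
Change of the 10 genes (knockdown minus control, log2) with the deposited scaling (circles), poly-A spike-in centring (squares) and hybridization spike-in centring (triangles), filled where the adjusted p in limma was under 0.05. SNAI1 stays below and TJP1 above 0 in all 3, whereas SNAI2, TWIST1, ZEB1, ZEB2 and JUP lie above 0 with the deposited scaling and below it with hybridization spike-ins.

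Genes around the members were described by 10 lists of 181 distinct genes, 171 of them measured, of which 29 rose and 41 fell. Among all genes 40.1% passed the test, 21.4% upward and 18.6% downward. Among 14 other EMT-inducing transcription factors 1 rose and 5 fell (median -0.068). FOSL1, an AP-1 subunit, fell (-0.46, SE 0.05), as did the homeobox factor PRRX1 (-0.33, SE 0.04), whose 2 probe sets gave -0.52 and -0.13. SOX4, a high-mobility-group factor, rose by 0.17 (SE 0.03), which turned to -0.0025 with hybridization and no longer passed with poly-A spike-in centring (0.067). Its 7 probe sets ranged from -0.0015 to 0.33. Of 14 factors that maintain the epithelial state, 1 rose and 4 fell (median -0.021), with ELF3 at -0.60 (SE 0.10) and the Krüppel-like factor KLF5 at -0.39 (SE 0.04), while GRHL1, a grainyhead factor, rose by 0.37 (SE 0.07), a call lost with hybridization spike-ins (0.21, adjusted p = 0.061) and with the median of its probe sets (0.15, adjusted p = 0.080), which ranged from -0.021 to 0.99. The called shares of these 2 lists, 42.9% and 35.7%, stood beside 40.1% of all genes, and with hybridization spike-ins 8 and 6 of the 14 fell.

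Corepressors that SNAI, ZEB and TWIST proteins recruit moved more often than any other of the 10 lists. Of 15, 10 fell and 3 rose, so 86.7% were called against the 40.1% of all genes, with a median of -0.22. Signal levels differed between lists. No corepressor was read only in the lowest signal class, against 7 of the 18 other cadherins. The 14 other EMT-inducing factors had no such gene either, with 42.9% called. The part of signal level in these shares was not tested. RCOR1, the partner of the demethylase KDM1A, fell (-0.37, SE 0.04), as did CTBP2, a corepressor bound by ZEB1 (-0.36, SE 0.04). The 2 probe sets of RCOR1 gave -0.61 and -0.12, and the 7 of CTBP2 ranged from -0.66 to -0.26. SIN3A, a histone deacetylase scaffold, rose by 0.34 (SE 0.04), as did the remodeller CHD4 by 0.31 (SE 0.03). The 3 probe sets of SIN3A ranged from -0.076 to 0.61 and the 3 of CHD4 from 0.25 to 0.39. Hybridization spike-in centring gave 12 falls and 2 rises.

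Of 15 ligase subunits and kinases that act on SNAI, ZEB and TWIST proteins, 7 fell and 3 rose (median -0.088). Thus 66.7% were called against 40.1% of all genes, and 11 fell and 2 rose with hybridization spike-ins. The F-box proteins FBXO45 and FBXO11, which mark these factors for destruction, fell (-0.55, SE 0.06, and -0.48, SE 0.04). The 3 probe sets of FBXO45 ranged from -0.82 to -0.34 and the 9 of FBXO11 from -0.95 to -0.17. FBXL5, another F-box protein, rose by 0.33 (SE 0.04), and the kinase ATM by 0.30 (SE 0.04), with 5 ATM probe sets from 0.0063 to 0.62. Protein levels of the transcription factors were not measured.

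Among 18 other cadherins 2 rose and the other 16 did not pass the test (11.1% called against 40.1% of all genes, median -0.029). For 7 of the 18 every probe set was in the lowest signal class, so these were read near many background controls. Without probe sets of that class 2 cadherins rose and 2 fell. CDH12, a type II cadherin of the nervous system, rose by 0.98 (SE 0.04), and its 3 probe sets gave 0.79 to 1.14. CDH8, with 1 probe set, rose by 0.30 (SE 0.05), a call lost with hybridization spike-ins (0.13, adjusted p = 0.077), where 11 of the 18 fell. In 15 catenins and adherens junction partners 4 rose and 2 fell (40% called against 40.1% of all genes, median 0.044). That balance turned to 3 and 7 with hybridization and 3 and 4 with poly-A spike-ins. The adhesion receptor NECTIN2 rose by 0.53 (SE 0.05) and the polarity scaffold PARD3 by 0.32 (SE 0.04), while NECTIN4 fell (-0.46, SE 0.06), as did VCL, the actin linker vinculin (-0.25, SE 0.04). The 4 probe sets of VCL ranged from -0.59 to -0.013.

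Tight junction genes other than the members split evenly. Of 36 measured, 5 rose and 5 fell (27.8% called against 40.1% of all genes, median -0.011). Hybridization spike-in centring gave 4 rises and 19 falls. LSR, a protein of tricellular contacts, rose by 0.91 (SE 0.06), as did the claudin CLDN23 by 0.89 (SE 0.06). CLDN1 fell (-0.62, SE 0.05), although its 4 probe sets ranged from -1.08 to -0.19. Without those of the lowest signal class its change was -0.19. The polarity protein PARD6A fell as well (-0.63, SE 0.08). LSR, CLDN23 and PARD6A had 1 probe set each. Of 15 desmosome genes, the partners of JUP among them, 4 rose and the other 11 did not pass (26.7% called, median 3.77e-04). DSG2, a desmosomal cadherin, stood at 0.70 (SE 0.04) and the plakophilin PKP4 at 0.49 (SE 0.04). Hybridization spike-in centring left 3 desmosome genes as rising and 6 as falling.

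Of 14 epithelial surface and keratin genes 4 fell and 1 rose (35.7% called against 40.1% of all genes, median -0.027). With hybridization spike-ins 7 fell and 1 rose. The keratin KRT7 fell (-1.08, SE 0.05), as did the surface glycoprotein CD24 (-0.99, SE 0.04), while ERBB3, a receptor that melanocytes also express, rose by 0.48 (SE 0.04). KRT7 and CD24 had 1 probe set each, which gives no second reading. Of 15 mesenchymal genes 5 rose and 4 fell (60% called against 40.1% of all genes, median -0.014). These counts turned to 3 and 8 with hybridization and 4 and 7 with poly-A spike-ins. FN1, the matrix protein fibronectin, fell (-1.18, SE 0.03), and its 8 probe sets ranged from -1.67 to -0.48. The gelatinase MMP9, with 1 probe set, fell as well (-1.15, SE 0.04), whereas TGFBI and SPARC, both secreted matrix proteins, rose by 0.55 and 0.37 (SE 0.03 each). The fibroblast marker genes COL1A1, COL1A2 and COL3A1 are also in this list.

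**Figure D5:**
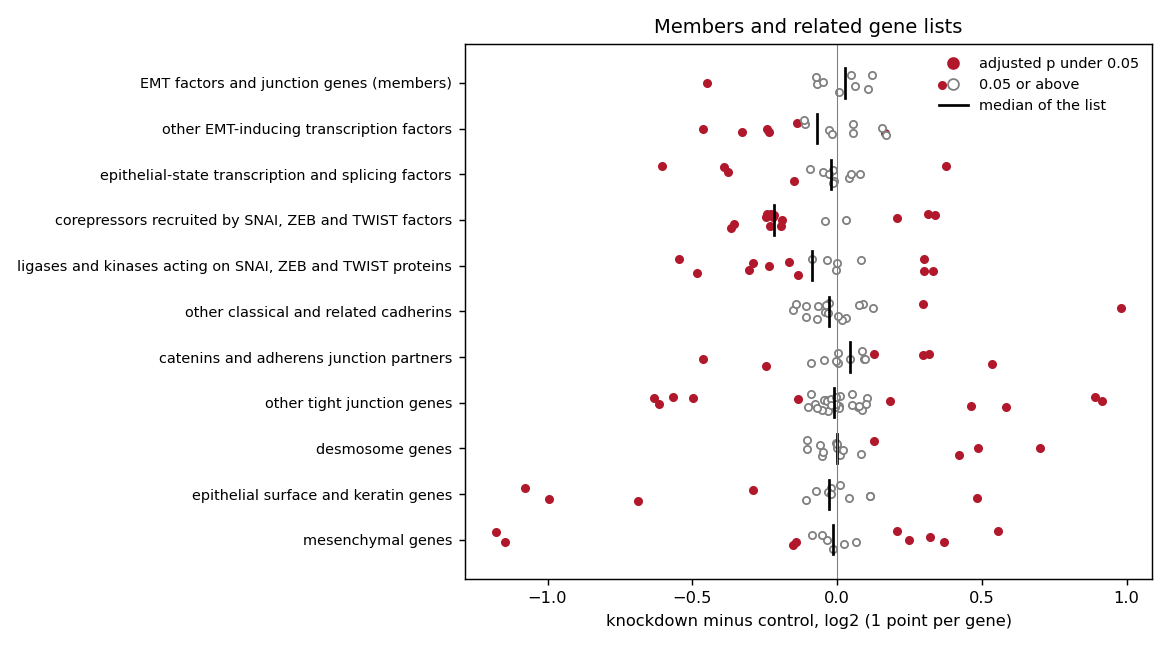
Change of each measured gene (knockdown minus control, log2) for the 10 members and the 10 related lists, 1 point per gene, filled where the adjusted p in limma was under 0.05, with a bar at the median of each list. The members cluster near 0 apart from SNAI1 and TJP1, and the corepressors have the lowest median, -0.22.

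The 3 genes whose values over the 6 arrays lay nearest to SNAI1, by root mean square difference after centring, were the DNA polymerase epsilon subunit POLE2 (0.023), MIX23 (0.033) and TXNL4B (0.040). Their changes were -0.47, -0.44 and -0.45. With 6 arrays in 2 groups this mainly selects genes with a fall of the same size.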

How the data were processed

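Total RNA of 3 knockdown and 3 control samples of A375 was isolated with Trizol and read as biotinylated cRNA on Affymetrix arrays, per the labels' protocols. The deposited values are taken as log2 expression, and the submitters' processing notes name RMA, affy and limma without version, role or order. Each probe set of the deposited table had a median of 0 over the arrays (largest absolute median 4.85e-07), so exact levels are unknown and only a coarse signal class could be read for each probe set. The log base is taken from RMA's usual output. Of 49395 probe sets, 102 array controls were left out, 44988 had 1 gene symbol and 1832 had several.

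A gene was the mean of its probe sets, with no filter on low values. The 2 groups were tested with limma 3.58.1, functions lmFit and eBayes (R 4.3.3), two-sided, over all 18132 genes, all 49293 probe sets, or all 38590 probe sets minus the mean of the others of their gene, with Benjamini-Hochberg adjustment over each. The functions were tested on simulated data. The number of arrays limits the precision. Named genes are all members, UBE2S, up to 2 called genes per direction and list without overlap between groups, and the 3 nearest profiles. Members and lists were chosen with earlier results of these data known. Signal classes, and tests of probe set differences under other settings, were added after seeing the data. Probe sets that the annotation pairs with several symbols or none entered the fit over all probe sets but no gene value. Of these, only the ones naming a member or its antisense RNA are described.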

Additional observations from a re-analysis of the deposited data

Results flagged for a closer look

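Probe sets outside the 10 genes' own 21 that name a member's antisense RNA or a member with a second gene stood apart from the control arrays. ZEB1-AS1, the antisense transcript that starts beside ZEB1, is entered under 2 gene numbers in the annotation. Its probe set 11745924_at read 0.42, 0.13 and 0.61 in knockdown arrays and -0.18, -0.19 and -0.13 in control arrays, a change of 0.55 (SE 0.11, adjusted p = 0.0044 in limma). The other, 11745925_at, read 0.20, 0.29 and 0.23 in knockdown arrays and -0.20, -0.50 and -0.40 in control arrays, a change of 0.61 (SE 0.08, adjusted p = 4.78e-04). Both rose while 6 of the 7 ZEB1 probe sets did not pass the test, and the difference between ZEB1-AS1 and ZEB1 was not tested.

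The probe set that names both OCLN and its pseudogene OCLNP1 read -0.22, -0.0083 and -0.21 in knockdown arrays and 0.16, 0.0083 and 0.30 in control arrays. Its change was -0.30 (SE 0.09, adjusted p = 0.029), with replicate 2 of both groups close to 0. Groups of 3 arrays were not tested for single outlying arrays.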

How the results depend on the processing

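Over 169 recomputed values of the 10 genes, 145 kept their direction and side of the threshold, 11 kept their direction and passed only in the alternative, and 13 changed sign, 3 of which also passed there (ZEB1 and JUP with hybridization spike-ins, ZEB2 without 11747942_a_at). SNAI1 kept its call in all 16 alternatives. Other choices or summaries of probe sets could not move its value of -0.45, since it has only 1 probe set. The same holds for the other members with 1 probe set. With hybridization spike-in centring the values were -0.046 for SNAI2, -0.062 for TWIST1, -0.12 for ZEB1, -0.10 for ZEB2, -0.24 for CDH1, -0.24 for CDH2, -0.21 for OCLN and -0.16 for JUP, with 10960 genes called, 12 of the 21 probe sets, 19 rises and 95 falls among list genes, and SOX4 at -0.0025. With poly-A spike-ins they were -0.051 for ZEB1, -0.035 for ZEB2, -0.17 for CDH1, -0.17 for CDH2 and -0.091 for JUP, with 68 falls among list genes. With hybridization spike-ins the single probe sets of SNAI2, TWIST1, ZEB1 (11721546_s_at, 11721547_s_at, 11749136_x_at, 11749644_s_at), OCLN (11728484_s_at) and JUP stood, in this order, at -0.046, -0.062, -0.13, -0.16, -0.11, -0.13, -0.14 and -0.16, and with poly-A the last 6 at -0.056, -0.093, -0.037, -0.056, -0.071 and -0.091. The spike-in probe sets were themselves higher in knockdown arrays, and the cause was not tested. With the probe set of largest variance ZEB1 was 0.20 and ZEB2 0.43, both called. With probe sets not named as shared, 1905 genes were called, with 7 rises and 12 falls among list genes; fewer genes are tested there, and of the members only SNAI1, SNAI2, TWIST1 and CDH2 remain. With array weights TWIST1 passed (0.13) and 11721547_s_at of ZEB1 was -9.95e-04. Leaving out 1 probe set gave -0.30 or 0.43 for ZEB2, -0.14 for CDH2, -0.013 for TJP1 and 0.027 for OCLN.

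Leaving out 1 array gave ranges of 0.062 to 0.17 for SNAI2, 0.032 to 0.094 for ZEB2, -0.12 to -0.029 for CDH1, 0.082 to 0.13 for TWIST1, -0.092 to 0.014 for OCLN (positive without control replicate 1), -0.019 to 0.020 for JUP (negative without control replicate 2), 3 to 5 called probe sets of the members (3 without knockdown replicate 3 and without control replicate 1) and 4171 to 4725 probe sets that differ from the others of their gene, against 6401 (lowest without knockdown replicate 2, and 4197 without control replicate 2). For single probe sets near 0 they were -0.035 to 0.019 (11734686_x_at), -0.0051 to 0.022 (11721547_s_at), -0.0054 to 0.12 (11749136_x_at) and -0.0044 to 0.070 (11749644_s_at) for ZEB1, -0.025 to 0.020 for CDH2 (11726615_a_at), -0.057 to 0.014 for TJP1 (11725503_s_at) and -0.039 to 0.079 for OCLN (11728484_s_at).

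Replicate numbers are shared by both groups, but same-numbered arrays did not deviate together (correlations of -0.019, -0.014 and -0.062). The labels do not say whether they were handled together, and these correlations cannot settle it. With the replicate block 6684 genes were called, SNAI1 stayed called (adjusted p = 0.0021), as did TJP1 (adjusted p = 0.0015), and 4 probe sets of the members passed.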
